A study of Drosophila melanogaster with 6 samples.

Results

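Insulin-like signalling in Drosophila melanogaster was described here through 10 genes: the insulin-like peptides Ilp1 to Ilp8, the secreted binding protein ImpL2 and the insulin receptor InR. They were chosen by name and found by their FlyBase identifiers, and all 10 were among the 16942 genes with at least 1 count in the data. The study asked how dividing an RNA sample into technical replicates affects the measured mRNA levels. Its mRNA libraries came from wild-type males of the Dahomey strain, reared at 100 larvae per vial and held 10 to a vial after eclosion. From 1 day of age each male lived alone for 5 days, and the males in these libraries had been exposed to rival males for 2 or 26 h before being snap frozen. Each RNA pool came from 40 body parts, and each pool was divided into 2 libraries sequenced as single-end reads of 50 nt on different lanes of a common flow cell.

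The 3 pools were abdomens after 2 h with rivals, head-thoraxes (heads with thoraxes) after 2 h with rivals, and head-thoraxes after 26 h with rivals. All 3 pools thus shared genotype, sex and the presence of rivals. No pool of males without rivals was analysed here, so the 26 h and 2 h pools differed in the length of exposure, and an effect of rivals cannot be told apart from other differences between the pools. With 1 pool per group there was no biological replicate. The 2 libraries of a pool differ only technically, so every p-value below compares these pools of RNA and measures technical spread.

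In flies, insulin-like peptides are secreted hormones that bind the receptor tyrosine kinase InR, which acts through phosphoinositide 3-kinase and Akt to restrain the transcription factor FoxO and to promote growth and nutrient storage. Ilp2, Ilp3 and Ilp5 are made mainly by a small cluster of neurosecretory brain neurons, the insulin-producing cells, while Ilp6 is made largely by the fat body and Ilp7 by neurons of the ventral nerve cord. Ilp8 is a relaxin-like peptide known for delaying metamorphosis after tissue damage, and ImpL2 binds the peptides outside cells and limits their action.

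Library totals over genes lay between 21070598 and 34217543 counts. The body part markers matched the labels. The summed level of 5 neuronal genes was 171 to 176 CPM (counts scaled to a library of standard size) in the abdomen libraries and 1987 to 2122 CPM in the head-thorax libraries. All 5 were lower in the abdomen, with log2 ratios at 2 h from -1.80 (elav) to -6.68 (nSyb). Of the abdomen sum, cpx gave 100 CPM. The overlapping Nepl11 had 3967 counts there beside 5926 for cpx, and 5205 beside 55499 in the head-thorax at 2 h. The gene elav overlaps arg, with 1481 counts beside 1002 in the abdomen and 3228 beside 3175 in that head-thorax pool. The sum of 3 accessory gland genes was 2557 to 2627 CPM against 3.29 to 6.46 CPM. Akh, the adipokinetic hormone of the corpora cardiaca, an endocrine gland, averaged 0.0495 CPM in the abdomen, 25.4 CPM in the head-thorax at 2 h and 25.7 CPM at 26 h. Of the eggshell genes, which mark females, Vm26Aa had no count in any pool. Cp15 was at 0 in the head-thorax pools and 0.848 CPM in the abdomen. The gene dec had 104 counts in the abdomen and 2 and 7 in the head-thorax pools at 2 and 26 h. The overlapping asRNA:CR43615 had 75 counts in the abdomen and 0 and 1 in those pools, and shared reads cannot be separated. The genes matched to the BDGP6.54 annotation showed that reads had been counted over whole gene spans and without strand: among pairs in which a gene with 20 or more counts lay inside another, the outer gene's count equalled or exceeded the inner one's in 99.7% to 99.9%, whichever the strand.

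That counting bears on all 10 members, because each overlaps another annotated gene. Ilp1 (FBgn0044051, 3L:9798420-9799050, plus strand), Ilp2 (FBgn0036046, 3L:9799698-9800440, plus), Ilp3 (FBgn0044050, 3L:9801298-9802120, minus) and Ilp4 (FBgn0044049, 3L:9803399-9804263, minus) all lie inside CG32052. CG32052 has a 258-base exon within Ilp1 and none within Ilp2, Ilp3 or Ilp4, which sit in its introns. Ilp5 (FBgn0044048, 3L:9823349-9823897, minus) lies in an intron of CG43897 on the opposite strand. Ilp6 (FBgn0044047, X:2331493-2334658, minus) lies within introns of Raf, a kinase gene on the opposite strand. Ilp7 and Ilp8 overlap other genes by a few bases. Ilp7 (FBgn0044046, X:3667621-3668845, plus) shares 9 bases with Parg. Ilp8 (FBgn0036690, 3L:17029812-17032080, minus) shares 3 bases with CG7730 and 26 with lncRNA:CR45756. ImpL2 (FBgn0001257, 3L:4224006-4236147, minus) contains CG46460 on the same strand, with 1651 bases shared exon to exon, the longest such stretch of any member. No counts of CG46460 were used here, and its reads cannot be separated from those of ImpL2. InR (FBgn0283499, 3R:21570248-21619321, minus) contains lncRNA:Irar and lncRNA:CR44034, which share no exon bases with it.

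**Figure D1:**
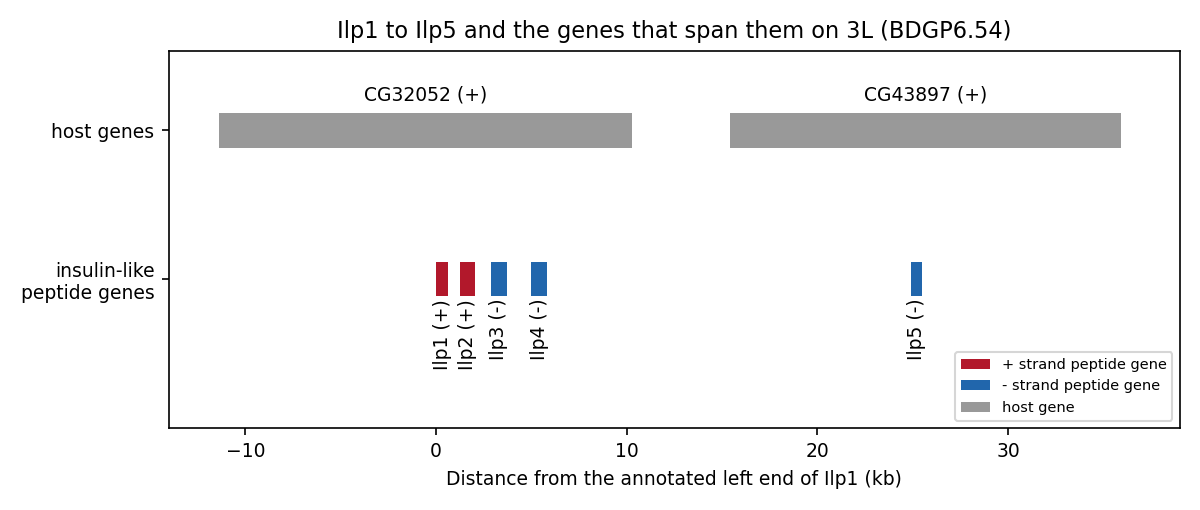
Map of Ilp1 to Ilp5 on 3L in BDGP6.54, with the horizontal axis giving the distance in kb from the annotated left end of Ilp1, boxes drawn to scale and coloured by strand. Ilp1 to Ilp4 sit inside the span of CG32052, and Ilp5 sits inside CG43897.

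The order of levels differed between the pools. Levels of different genes are given as CPM per kb of merged exon, over both libraries of a pool, with exact 95% Poisson intervals that cover counting error only. In the head-thorax at 2 h, Ilp2 was highest at 37.9 (35.9 to 40.0), followed by ImpL2 at 25.1 (24.3 to 25.9) and Ilp5 at 10.7 (9.49 to 12.1). Ilp6 at 5.92 (5.51 to 6.36) and InR at 5.19 (5.01 to 5.38) came next. Ilp3 stood at 1.76 (1.37 to 2.21), and the intervals of Ilp7 at 0.694, Ilp8 at 0.685 and Ilp1 at 0.412 overlapped. Ilp4, a peptide known from embryos, was lowest at 0.0693 (0.0143 to 0.202).

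In the abdomen at 2 h, ImpL2 was highest at 12.1 CPM per kb (11.5 to 12.6), and was followed by InR at 3.53 (3.39 to 3.67), Ilp6 at 1.86 (1.65 to 2.10) and Ilp8 at 1.25 (0.964 to 1.60). Ilp5 at 0.248, Ilp7 at 0.162, Ilp3 at 0.158 and Ilp2 at 0.0759 had overlapping intervals, and Ilp1 had no count, which allows up to 0.0806 CPM per kb at a floor of 3 counts over the pool. In the head-thorax at 26 h, Ilp2 was again highest at 27.8 (26.2 to 29.5) and ImpL2 second at 21.1 (20.4 to 21.8). The intervals of Ilp5 at 6.46, InR at 5.67 and Ilp6 at 5.62 overlapped there, as did those of Ilp7 at 0.819, Ilp3 at 0.603 and Ilp8 at 0.600.

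The brain peptides made up most of the summed peptide level in the head-thorax and little of it in the abdomen. The 8 peptides summed to 58.2 CPM per kb in the head-thorax at 2 h, of which Ilp2, Ilp3 and Ilp5 gave 86.6% and Ilp2 alone 65.2%. At 26 h the sum was 42.1 CPM per kb, with 82.7% from those 3 genes and 66.0% from Ilp2. In the abdomen the sum was 3.78 CPM per kb, with 49.3% from Ilp6, 33.1% from Ilp8 and 12.8% from Ilp2, Ilp3 and Ilp5. Summed peptide over InR, per length, was 1.07 in the abdomen, 11.2 in the head-thorax at 2 h and 7.43 at 26 h, while ImpL2 over InR was 3.43, 4.83 and 3.72. Orders and ratios depend on the length used, because reads were counted over whole spans and InR, for instance, has 11367 bases of exon in a span of 49074 bases. Ilp2 over InR in the head-thorax at 2 h was 7.30 per exon length and 28.4 per gene span.

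Per kb of gene span, Ilp2 was still highest in both head-thorax pools and ImpL2 in the abdomen, but the genes below them changed places. In the head-thorax at 2 h Ilp2 at 34.2 CPM per kb of span was followed by Ilp5 at 9.33, ImpL2 at 5.51, Ilp6 at 4.52, Ilp3 at 1.60 and InR at 1.20. At 26 h Ilp5 at 5.62 came after Ilp2 and before ImpL2 at 4.63, Ilp6 at 4.29 and InR at 1.31. In the abdomen ImpL2 at 2.65 was followed by Ilp6 at 1.42, InR at 0.817 and Ilp8 at 0.478. So ImpL2 came directly after Ilp2 in the head-thorax per exon length only, and per gene span Ilp5 lay between them.

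**Figure D2:**
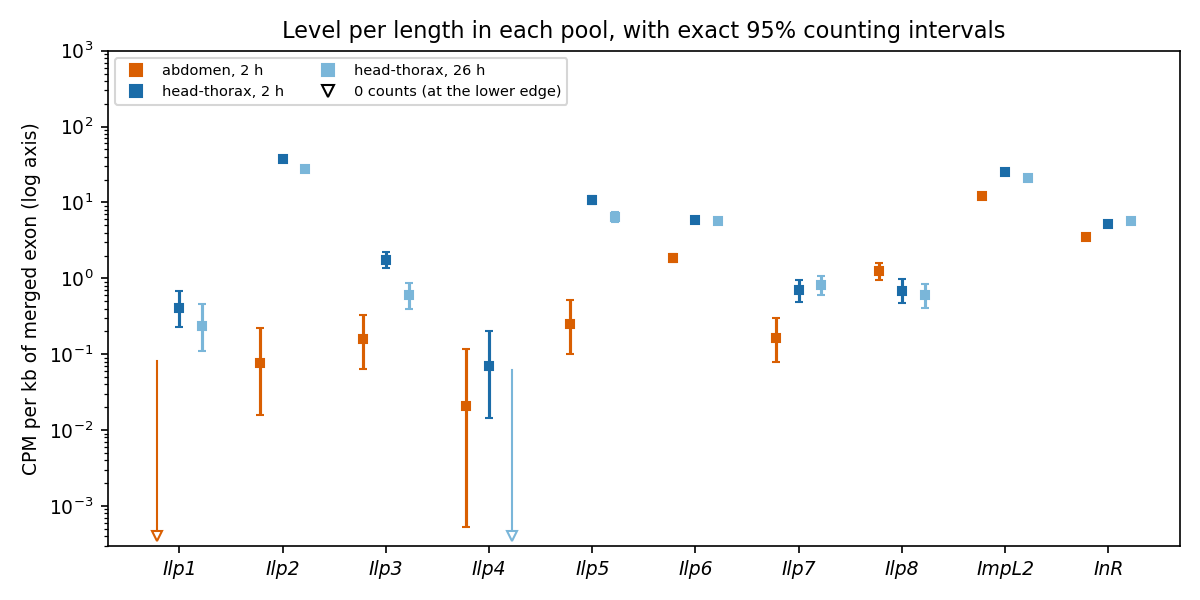
Pooled level of each gene in each pool as CPM per kb of merged exon on a log axis, with exact 95% counting intervals and open triangles for pools with no count, whose lines reach up to the floor of 3 counts. Ilp2 lies highest in both head-thorax pools at 37.9 and 27.8, and ImpL2 lies highest in the abdomen at 12.1.

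The abdomen was compared with the head-thorax at 2 h by edgeR's quasi-likelihood test over 14694 genes. A gene was called when its adjusted p was under 0.05 and its fitted fold was at least 2. Of the 8 members that passed the filter on low counts, 6 were called lower in the abdomen (Ilp2, Ilp3, Ilp5, Ilp6, Ilp7 and ImpL2) and 0 higher, where 21.7% of all genes were called lower, 35.6% higher and 57.3% in either direction. By adjusted p alone 7 were lower and 1 higher, and 43.6% of all genes were lower and 46.8% higher by adjusted p alone. The median log2 ratio of the 8 members was -1.87, and that of all genes was 0.06. In bulk RNA, fewer cells of a type and less RNA per cell cannot be told apart.

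The neurosecretory peptides had the largest ratios. Ilp2 had 1 and 2 counts in the abdomen libraries (0.0423 and 0.0567 CPM) and 816 and 552 counts in the head-thorax libraries (25.5 and 25.2 CPM). Every head-thorax library lay far above both abdomen libraries, and the pooled head-thorax level was 499-fold that of the abdomen (170.5 to 2424, exact 95% interval), an imprecise ratio because the abdomen held only 3 counts. Ilp5 was 0.127 and 0.113 CPM in the abdomen and 5.04 and 5.25 CPM in the head-thorax. The libraries did not overlap, and the fitted log2 ratio of abdomen over head-thorax was -5.38 ± 0.30 (SE; edgeR adjusted p = 1.1e-30).

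Ilp3 was likewise 0.127 and 0.113 CPM in the abdomen, from 3 and 4 counts, and 1.66 and 0.821 CPM in the head-thorax, from 53 and 18 counts. The groups did not overlap, with a log2 ratio of -3.42 ± 0.45 (edgeR adjusted p = 5.4e-11), and of -2.68 without the first head-thorax library. The head-thorax libraries, cut from the same RNA, differed from each other 2.02-fold for Ilp3 (exact binomial p = 0.00783, 0.397 after adjustment over 12232 genes). By adjusted p the split libraries differed in 0 of 5 members tested in the abdomen, 0 of 9 in the head-thorax at 2 h and 0 of 8 at 26 h. Over all genes tested the shares were 1.83% in the abdomen, 0.638% in the head-thorax at 2 h and 0.459% at 26 h.

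Counts of the host genes CG32052 and CG43897 were also lower in the abdomen. CG32052 had 67 counts in the abdomen and 2686 in the head-thorax at 2 h, and Ilp1 to Ilp4 together had 11 and 1456, or 16.4% and 54.2% of the CG32052 count. Counting over whole spans puts the peptides' reads into the host's count, so the 2 are not separate measurements. Less the counts of Ilp1 to Ilp4, CG32052 had 56 and 1230. Its intronic guests were unequal: at 2 h in the head-thorax Ilp2 had 1368 counts, Ilp3 71 and Ilp4 3. CG43897, the host of Ilp5, had 11054 counts in the abdomen and 82844 in the head-thorax (log2 ratio -3.04 ± 0.03). At the abdomen's rate of 0.633 Ilp5 counts per 1000 CG43897 counts, the host's head-thorax count corresponds to 52.5 of the 276 Ilp5 counts, or 19.0%. The summed level of the 5 neuronal genes was also far higher in the head-thorax, as given above. Dsk, a neuropeptide gene of the brain's neurosecretory cells, was 0.0848 ± 0.000349 CPM (SD, n = 2 libraries) in the abdomen and 11.8 ± 0.0116 CPM in the head-thorax. The other marker of such cells, the transcription factor gene dimm, was 1.45 ± 0.316 and 1.01 ± 0.260 CPM, a log2 ratio of 0.52 (edgeR adjusted p = 0.0631). Dsk overlaps CR33294 over 569 bases, and reads from that stretch cannot be separated. CR33294 had 99 counts in the abdomen and 869 in the head-thorax, beside 5 and 636 for Dsk. The part of body composition in the ratios was not tested.

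Ilp7 was 0.254 and 0.113 CPM in the abdomen and 0.689 and 0.776 CPM in the head-thorax. It was higher in both head-thorax libraries, from only 10 and 39 counts per pool, with a log2 ratio of -2.07 ± 0.47 (edgeR adjusted p = 3.9e-05). The peptides of lowest count did not pass the filter. Ilp1, which is expressed in insulin-producing cells mainly outside feeding stages, had 0 counts in both abdomen libraries and 9 and 5 in the head-thorax. The head-thorax level was 5.11-fold the floor of 3 counts over the abdomen pool, and the exact 95% lower limit of the ratio was 3.63. Ilp4 had 1 and 0 counts in the abdomen and 2 and 1 in the head-thorax, a ratio of 3.28 with an interval of 0.264 to 172 that leaves its direction unresolved at this depth.

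The fat body peptide Ilp6 was 4.44 and 4.53 CPM in the abdomen and 15.0 and 13.3 CPM in the head-thorax. The libraries did not overlap, and the log2 ratio was -1.67 ± 0.10 (edgeR adjusted p = 6.9e-28). Its host Raf differed in the other direction, with 4255 counts in the abdomen and 2276 in the head-thorax (log2 ratio 0.77 ± 0.04), so Ilp6 counts per 1000 Raf counts were 62.3 and 338. The Raf counts include those of Ilp6, and less these they were 3990 and 1506. The summed level of 4 fat body genes (Lsp2, apolpp, FASN1 and Adh) was 6904 to 6932 CPM in the abdomen and 13655 to 13664 CPM in the head-thorax. The 4 did not move together: the log2 ratios were -8.23 for Lsp2, -1.50 for Adh and -0.90 for apolpp, and 0.83 for FASN1, which was higher in the abdomen. Their part in the Ilp6 ratio was not tested.

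Ilp8 alone of the tested members had the higher level in the abdomen. It was 0.972 and 1.16 CPM in the abdomen libraries and 0.532 and 0.684 CPM in the head-thorax libraries. The libraries did not overlap, but the log2 ratio of 0.86 ± 0.32 (edgeR adjusted p = 0.00949) fell short of 2-fold. The call changed with the processing: the ratio was 1.01 with DESeq2 size factors in edgeR, 1.07 with raw totals and 1.01 without the second head-thorax library, all past 2-fold, but 0.98 with an adjusted p of 0.0546 in DESeq2's Wald test. Adjusted p ranged from 0.00146 (raw totals) to 0.644 over the alternatives. The 0.644 came with the 2-fold limit tested inside the model, which tests for a fold past 2 and not for any difference. Its neighbour CG7730, which shares 3 bases with it, had 870 counts in the abdomen and 69 in the head-thorax.

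The binding protein and the receptor had smaller ratios. ImpL2 was 32.2 CPM in both abdomen libraries and 67.1 and 66.5 CPM in the head-thorax libraries. The libraries were well apart, yet the log2 ratio of -1.05 ± 0.04 (edgeR adjusted p = 3.9e-40) lay close to the 2-fold limit. It was -0.91 with DESeq2 size factors and in DESeq2's Wald test, -0.84 with raw totals and -0.98 without the first head-thorax library. With the 2-fold limit tested inside the edgeR model, adjusted p was 0.0716. ImpL2 was not called in these settings. InR was 39.4 and 40.5 CPM in the abdomen and 57.8 and 60.8 CPM in the head-thorax. It was lower in both abdomen libraries, with a log2 ratio of -0.56 ± 0.04 (edgeR adjusted p = 7.5e-22), under 2-fold and thus not called. Taking off the counts of the 2 RNAs nested in InR, of which lncRNA:CR44034 had 139 counts in the abdomen and 0 in the head-thorax at 2 h, gave -0.63 ± 0.04.

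**Figure D3:**
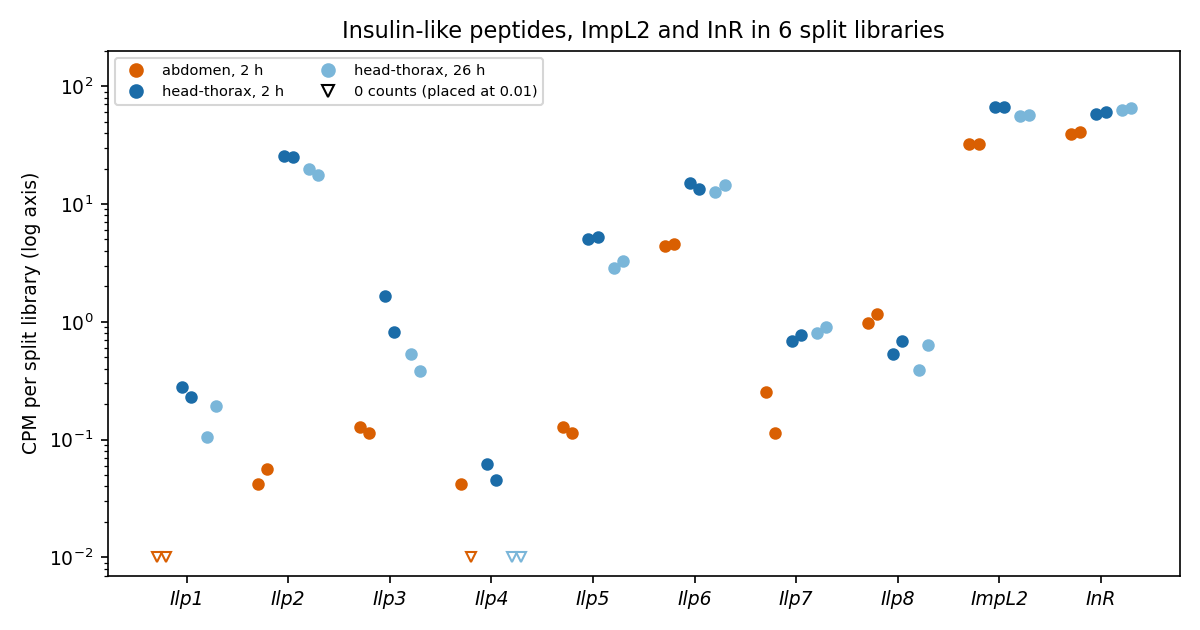
CPM of each of the 10 genes in each of the 6 libraries on a log axis, with open triangles for libraries without a count (placed at 0.01). Ilp2, Ilp3, Ilp5, Ilp6, Ilp7, ImpL2 and InR lie lower in both abdomen libraries than in every head-thorax library at 2 h, and Ilp8 lies higher.

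Head-thoraxes at 26 h were compared with those at 2 h in the same model. Both comparisons share the 2 h head-thorax libraries, so their ratios are not independent. Of the 8 members tested, 1 (Ilp3) was called lower at 26 h and 0 higher, where 1.5% of all genes were called lower, 6.21% higher and 7.7% in either direction. By adjusted p alone 4 members were lower (Ilp2, Ilp3, Ilp5 and ImpL2) and 1 (InR) was higher, against 21.3% and 19.7% of all genes. The members' median log2 ratio was -0.22, and that of all genes was 0.00. Testis genes, at trace levels, also differed between these pools: the summed level of 3 testis genes was 4.02 to 7.07 CPM at 2 h and 12.1 to 14.3 CPM at 26 h, with betaTub85D (1.49) and Mst87F (1.73) called higher, against 2702 to 2755 CPM in the abdomen. Their part in the members' ratios was not tested.

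The 3 peptides of the insulin-producing cells were all lower at 26 h by adjusted p, by different amounts. Ilp3 was 0.529 and 0.384 CPM at 26 h, from 15 and 12 counts, against 1.66 and 0.821 CPM at 2 h. The 26 h libraries lay below both 2 h libraries, with a log2 ratio of -1.53 ± 0.33 (edgeR adjusted p = 6.7e-05). The call rested on the first 2 h library, the one of 53 counts: without it the ratio was -0.85 (adjusted p = 0.190), and DESeq2's Wald test on all libraries gave -1.42 (adjusted p = 0.0528).

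Ilp2 was 19.7 and 17.6 CPM at 26 h against 25.5 and 25.2 CPM at 2 h. The libraries did not overlap, and the log2 ratio was -0.45 ± 0.06 (edgeR adjusted p = 3.6e-09), short of 2-fold. Ilp5 was 2.86 and 3.29 CPM at 26 h against 5.04 and 5.25 CPM at 2 h. It too was lower in both libraries without reaching 2-fold, at -0.73 ± 0.14 (edgeR adjusted p = 1.2e-05), while its host CG43897 was 0.27 ± 0.03 higher on the log2 scale. At the abdomen's rate, the host's 110263 counts at 26 h correspond to 69.8 of the 184 Ilp5 counts, or 37.9%. This too rests on 7 abdomen counts of Ilp5. Per exon length, Ilp2 over Ilp3 was 21.6 at 2 h (17.3 and 34.4 in its libraries) and 46.1 at 26 h (41.8 and 51.5), so the 2 h value depended on the library. The ratio of Ilp2 over Ilp5 was 3.54 and 4.30.

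Dsk and Akh, genes of other or overlapping neurosecretory cells, did not pass as lower at 26 h. Dsk, which some insulin-producing cells also express, was 11.8 ± 0.0116 CPM at 2 h and 14.8 ± 1.22 CPM at 26 h, a log2 ratio of 0.32 ± 0.08 (edgeR adjusted p = 0.000645) and no call, and dimm was 1.01 ± 0.260 and 1.19 ± 0.581 CPM. The overlapping CR33294 had 869 counts at 2 h and 1253 at 26 h, beside 636 and 880 for Dsk. Akh had a log2 ratio of 0.03 ± 0.06 (edgeR adjusted p = 0.768). The summed level of 5 neuronal genes was 1987 to 2016 CPM at 2 h and 2092 to 2122 CPM at 26 h.

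The other peptides were not resolved between the times. Ilp6 was 12.6 and 14.4 CPM at 26 h, overlapping the 15.0 and 13.3 CPM at 2 h, with a log2 ratio of -0.07 ± 0.08 (edgeR adjusted p = 0.491). Among the fat body genes Lsp2, a storage protein, fell from 971 ± 4.10 to 374 ± 5.996 CPM (log2 ratio -1.37 ± 0.03). The others had ratios of -0.56 (Adh), 0.39 (apolpp, 3849 ± 65.3 to 5032 ± 59.5 CPM) and 0.02 (FASN1), none called, and the summed fat body level was 13655 to 13664 CPM at 2 h and 11777 to 11809 CPM at 26 h. Ilp7 was 0.812 and 0.895 CPM at 26 h against 0.689 and 0.776 CPM at 2 h. Both of its 26 h libraries were higher, with a log2 ratio of 0.24 ± 0.32 (edgeR adjusted p = 0.593). Ilp8 was 0.388 and 0.639 CPM at 26 h against 0.532 and 0.684 CPM at 2 h, overlapping, at -0.19 ± 0.38 (edgeR adjusted p = 0.738). Ilp1 had 3 and 6 counts at 26 h, and its ratio of 2 h over 26 h was 1.72 with an interval of 0.694 to 4.51. Ilp4 had 0 counts in both 26 h libraries against 3 in the 2 h pool, both at or under the floor.

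The extracellular and membrane members differed little between the times. ImpL2 was 55.7 and 56.7 CPM at 26 h against 67.1 and 66.5 CPM at 2 h, lower in both libraries at -0.25 ± 0.04 (edgeR adjusted p = 5.6e-08). InR was 63.3 and 65.5 CPM at 26 h against 57.8 and 60.8 CPM at 2 h, higher in both at 0.12 ± 0.04 (edgeR adjusted p = 0.00680). Both were far from 2-fold.

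**Figure D4:**
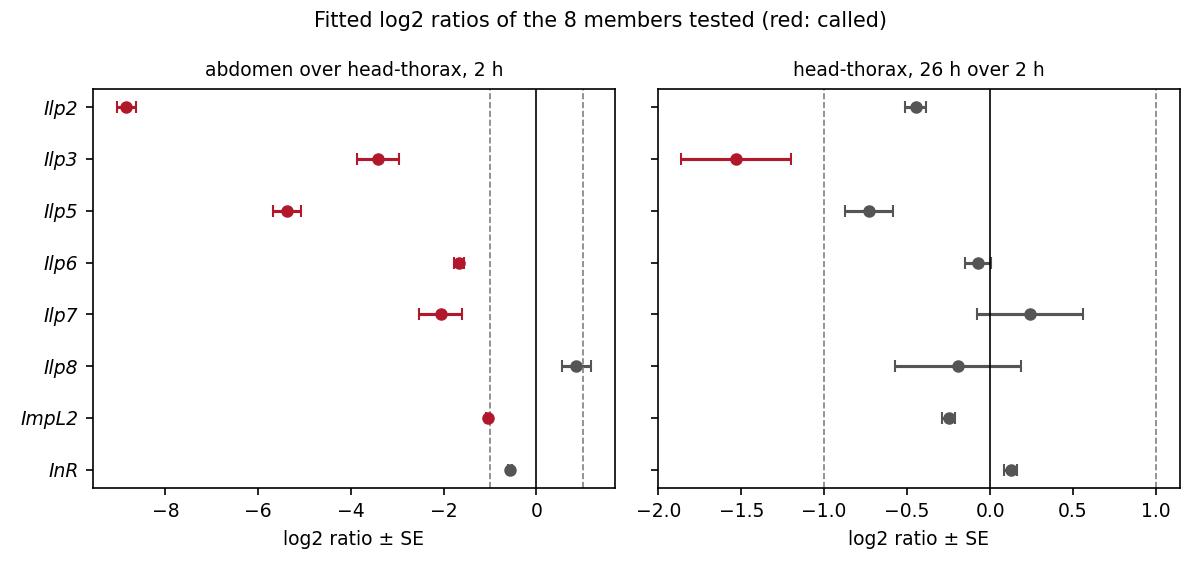
Fitted log2 ratios with standard errors for the 8 members tested, abdomen over head-thorax at 2 h on the left and head-thorax at 26 h over 2 h on the right, with called genes in red and 2-fold limits dashed. On the left 6 members lie below the lower limit, down to -8.85 for Ilp2, a fitted value that rests on 3 abdomen counts, and on the right only Ilp3 does at -1.53.

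The surrounding pathway was read from 6 lists of 64 genes, of which 62 were tested. In the abdomen against the head-thorax at 2 h, 4 were called higher and 18 lower, with a median log2 ratio of -0.58 beside 0.06 for all genes and the shares of 35.6% and 21.7% given above. Between 26 h and 2 h, 0 of the 62 were called by edgeR and 0 by DESeq2's Wald test, and at an unadjusted p under 0.05 in edgeR 13 were higher and 22 lower, with a median of -0.04. Over all genes 23.0% were higher and 24.2% lower at an unadjusted p under 0.05 in that comparison, and 6.21% and 1.5% were called.

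Many of the calls in the abdomen involve overlapping genes. With the counts of every gene annotated inside a pathway gene taken off, which also removes the pathway gene's own reads from the shared stretch, 3 were called higher and 18 lower. The lost calls were srl, Tk and Pepck1, and the added ones Sesn (-1.24) and Dh44 (-3.09), both lower.

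Among 5 extracellular modulators, 2 were called lower in the abdomen. Sdr, a secreted decoy of the receptor, was 1.40 ± 0.0657 CPM there and 19.7 ± 0.0391 CPM in the head-thorax (log2 ratio -3.80 ± 0.12). Lgr4, a relaxin receptor homologue, was 13.8 and 29.4 CPM (-1.09 ± 0.06, but -0.95 with DESeq2 size factors and -0.88 with raw totals). It overlaps 3 other genes, and the ratio was -1.63 with those inside it taken off. Ide, the insulin-degrading enzyme, had a ratio of -0.60 ± 0.04 and was not called.

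In the list named for the receptor, phosphoinositide 3-kinase and Akt, which also held foxo, sgg and srl, 14 genes were tested. Of these, 2 were called lower and 1 higher in the abdomen. The receptor substrate chico was 19.8 ± 0.551 CPM in the abdomen and 47.3 ± 1.73 CPM in the head-thorax, and the adaptor Lnk was 15.5 ± 0.0662 and 36.8 ± 1.61 CPM, each with a log2 ratio of -1.26. Counts of chico and of asRNA:CR44995, which overlap, cannot be separated without strand. The transcriptional coactivator srl was 40.5 ± 0.0371 and 10.9 ± 0.171 CPM (1.89 ± 0.06), and the overlapping CG31525 had 1789 counts in the abdomen beside 2391 for srl, and 8 beside 587 in the head-thorax. With those taken off the srl ratio was -0.07 ± 0.09, and no call was left. The kinases Pdk1 and sgg were the most abundant of the list and were not called, at 0.08 and -0.94.

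In the TOR branch, 1 of 13 genes was called lower, PRAS40, a TOR complex inhibitor, at 16.1 ± 0.296 CPM in the abdomen and 37.5 ± 0.952 CPM in the head-thorax (-1.22 ± 0.06). The translation initiation factor eIF4E1 had a ratio of -0.06 and REPTOR, a transcription factor held back by TOR, one of -0.85. The TOR inhibitor gig lay at 0.98, just inside the limit, at 1.13 with DESeq2 size factors, past it, and at -0.39 ± 0.06 with the genes inside it taken off.

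Of 7 FoxO and nutrient targets, 1 was called higher and 2 lower in the abdomen. The glucosidase gene tobi was 857 ± 11.2 CPM in the abdomen and 392 ± 6.44 CPM in the head-thorax (1.13 ± 0.03). Pepck1, a gluconeogenic enzyme whose counts were identical to those of the overlapping CG45087, was 559.7 ± 0.253 and 1587 ± 17.6 CPM (-1.50 ± 0.03). Thor, the translation inhibitor 4E-BP, was 109 ± 2.60 and 220.1 ± 6.26 CPM (-1.01 ± 0.03), and its call was lost under DESeq2 size factors at -0.87 and without either head-thorax library (-0.98 without the first).

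Of 11 signals known to act on the insulin-producing cells, 6 were called lower in the abdomen and 0 higher, with a median of -1.34. The neuropeptide sNPF was 2.10 ± 0.109 CPM in the abdomen and 46.9 ± 0.111 CPM in the head-thorax (-4.47 ± 0.09). The gene sun was 31.5 ± 1.72 and 126 ± 2.48 CPM, and the activin ligand daw 12.6 ± 0.152 and 34.02 ± 0.478 CPM. The tachykinin gene Tk was 23.7 ± 0.357 and 60.1 ± 0.825 CPM. Ect3, on the other strand within Tk, had 680 counts beside 1398 in the abdomen and 2218 beside 3242 in the head-thorax, and with those taken off the Tk ratio was -0.64 ± 0.07, short of 2-fold. Gbp2, a growth-blocking peptide, was the most abundant of the list besides CCHa2, at -0.47 ± 0.03 and not called. CCHa2, a nutrient-responsive peptide, was not called at -0.97. At 26 h it was 123 ± 3.49 CPM against 194 ± 2.86 CPM at 2 h, a log2 ratio of -0.66 ± 0.03 (edgeR adjusted p = 6.7e-35), short of 2-fold.

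Of 12 receptors listed for signals to the insulin-producing cells, 2 were called higher and 5 lower in the abdomen. The serotonin receptor gene 5-HT1A had a log2 ratio of -3.00 ± 0.11, sNPF-R -2.66 ± 0.14 and the octopamine receptor gene Oamb -1.55 ± 0.09. CCHa2-R was 51.5 ± 2.93 CPM in the abdomen and 1.72 ± 0.347 CPM in the head-thorax (4.95 ± 0.09). The overlapping CG7856 had 2852 counts in the abdomen beside 3061 for CCHa2-R, and 5 beside 90 in the head-thorax, and with those taken off the ratio was 1.16 ± 0.19. The most abundant of the list, the activin receptor gene babo at -0.92 ± 0.05 and dome, the receptor of the Unpaired cytokines, at -0.04 ± 0.06, were not called.

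In the head-thorax at 26 h against 2 h, the nutrient targets had ratios on both sides of 0 and under 2-fold. Pepck1 was 1138 ± 11.7 CPM at 26 h against 1587 ± 17.6 CPM (-0.48 ± 0.03) and tobi 553 ± 5.92 against 392 ± 6.44 CPM (0.49 ± 0.03). REPTOR was 94.5 ± 0.753 against 71.1 ± 1.57 CPM (0.41 ± 0.04). The other most abundant genes of the lists had ratios of 0.18 (Ide), -0.27 (Lgr4), -0.05 (sgg), 0.16 (Pdk1), -0.16 (eIF4E1), 0.06 (Gbp2), 0.17 (babo) and -0.16 (dome). The medians of the 6 lists lay between -0.08 and 0.01.

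**Figure D5:**
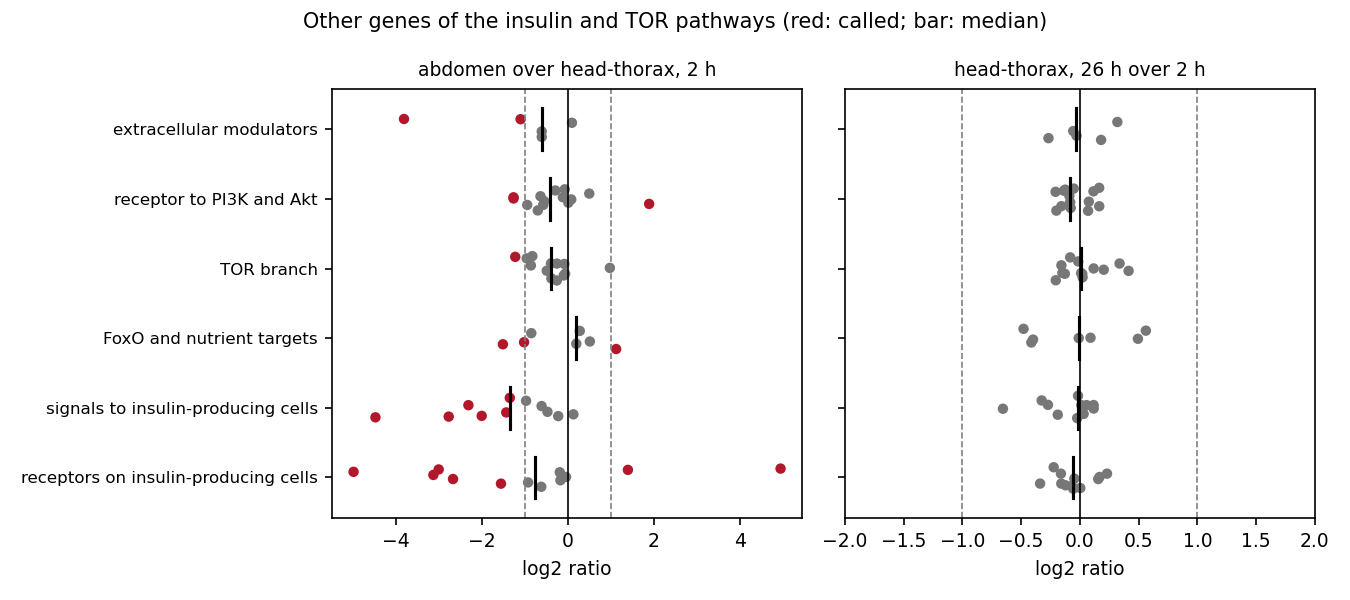
Fitted log2 ratios of the 62 pathway genes by list, abdomen over head-thorax at 2 h on the left and head-thorax at 26 h over 2 h on the right, with called genes in red, black bars at the list medians and 2-fold limits dashed. On the left 4 genes are called higher and 18 lower, and on the right all points lie inside the limits.

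Genes whose values over the 6 libraries were closest to a member's were found among 6194 genes that overlap no other gene and averaged at least 1 CPM, by the root mean square difference of centred log2(CPM + 0.5). For Ilp2 they were plh (0.08), CG2993 (0.11) and the opsin gene Rh5 (0.12), and for Ilp5 CheB93a (0.08), Gapdh1 (0.08) and Obp57a (0.12). For Ilp6 they were CG15456 (0.04), CG44242 (0.05) and spz5 (0.05). ImpL2 lay closest to the glycolytic enzyme genes Pfk (0.03) and Pgi (0.03) and to CG9691 (0.03), and InR to Ir41a, Ptp10D and HIPP1, all at 0.02. In the abdomen Ilp2 (0.0495 CPM) and Ilp5 (0.120 CPM) lay below the 0.5 CPM added, which shrinks their ratios in this measure. A small distance to them therefore does not mean an equal ratio. Gapdh1, listed for Ilp5, was 170 CPM in the abdomen and 1395 CPM in the head-thorax at 2 h. These are descriptions over 3 pools.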

How the data were processed

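The authors deposited raw counts per FlyBase gene for each of 6 mRNA libraries, listing genes with at least 1 count, and absent genes were taken as 0. Per the labels' protocols, RNA was extracted with the MiRVana kit from pools of 40 body parts. The aligner, counting program and genome build were not given in the sources used here. Gene names, positions and merged exon lengths came from BDGP6.54, which matched 16735 of the 16942 identifiers; for the other 207 no name was used. The total over genes counts a read again for each gene it overlaps.

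Counts were scaled by TMM factors, and 14694 genes passed edgeR's expression filter. A quasi-likelihood fit over all 6 libraries, with 3 residual degrees of freedom, gave log2 ratios and Benjamini-Hochberg adjusted p-values (edgeR 4.0.16, R 4.3.3). The technical coefficient of variation was 1.63%. The fit was tested on simulated data. Split libraries were compared by two-sided exact binomial tests, for genes with at least 10 counts in a pool. Intervals are exact, at 95%, and cover counting error only. Alternatives were DESeq2 (1.42.0) size factors and Wald test, raw totals, the filter, the 2-fold limit tested inside the model, a replicate block and each library left out.

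The 10 members and the 6 pathway lists were chosen with earlier results of these data known. All members are named, with the called genes of each pathway list (the 4 of highest mean CPM where more than 5 were called) and its 2 genes of highest mean CPM. Marker lists are given mainly as summed levels. The genes gig, Sesn and Dh44 were named, and nested genes' counts taken off, after the values were seen. The undivided libraries of these pools were not analysed here.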

Additional observations from a re-analysis of the deposited data

How the results depend on the processing

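In the abdomen against the head-thorax at 2 h, members called higher went from 0 to 1 (Ilp8) with DESeq2 size factors and with raw library totals, and ranged from 0 to 1 when each library was left out in turn. These scalings moved the median ratio of all genes by 0.14 and 0.21. Members called lower in that comparison went from 6 to 5 with both scalings, under DESeq2's Wald test and with the 2-fold limit tested inside the model. ImpL2 lost its call in each of them. Without the filter on low counts 7 members were called lower. At 26 h against 2 h, members called lower went from 1 to 0, and members called in either direction from 1 to 0, under DESeq2's Wald test and with the 2-fold limit tested inside the model, and both ranged from 0 to 1 with a library left out; the cause was not tested. Over all genes that comparison called 912 higher, 220 lower and 1132 in all, against 317, 88 and 405 with the limit inside the model and 138 lower under DESeq2's Wald test. With each library left out in turn, the 26 h ratio of Ilp6 ranged from -0.18 to 0.026 (the latter without the first 2 h library; 0.014 without the first 26 h library), and that of Ilp8 from -0.61 to 0.10 (above 0 without the first 26 h library). Ilp2 over InR, from means of the libraries, was 7.26 per exon length and 28.3 per gene span. Library numbers did not pair the pools (correlations of split differences -0.06, 0.04 and -0.03 over 7459 genes), and with the replicate block 5222 genes were called higher and 3195 lower in the abdomen, 891 and 190 at 26 h, with 6 and 1 members called as before. Depth limits Ilp1, Ilp3, Ilp4, Ilp7 and Ilp8, each under 100 counts per pool.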
